A study of Mus musculus with 2 samples.

Results

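The genes at the output end of the Hippo pathway are described here by the open chromatin around them in the embryonic mouse limb. They are 10 of 21938 protein-coding genes: the DNA-binding factors Tead1, Tead2, Tead3 and Tead4, the coactivators Yap1 and Wwtr1, and the target genes Ctgf, Cyr61, Ankrd1 and Amotl2. The genes were chosen by name, for their place in the pathway, with earlier results of these data known. Ctgf and Cyr61 carry the names Ccn2 and Ccn1 in the gene annotation. Peaks were placed with each gene in 3 ways: promoter peaks have their centre within 1 kb of a protein-coding start of the gene, gene-body peaks have it between the first start and the end, and distal peaks lie further than 1 kb from any start and have this gene's start as the nearest within 500 kb.

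The tissue was limb of healthy B6NCrl embryos at 11.5 days, with male and female embryos pooled, and it was assayed by DNase-seq, which maps the places where the enzyme DNase I can reach and cut the chromatin. The series holds 1 group of 2 biological replicates with no contrast. Counts below are therefore given per library and for shared peaks, which are merged overlapping peaks of both libraries, and no test between groups was possible. A limb bud is a mixed tissue, so a peak may come from any of its cell types.

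The Hippo pathway is a kinase cascade that limits tissue growth. When its kinases are active, YAP (from Yap1) and TAZ (from Wwtr1) are phosphorylated and held in the cytoplasm; otherwise they enter the nucleus and bind TEAD proteins, which recognise the word CATTCC in DNA. YAP and TAZ have no DNA-binding domain of their own. In skeletal tissue YAP is known to restrain the maturation of cartilage cells.

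The sequences shown first are promoters and open regions, chosen for the TEAD letters or those of another known site, and 1 for its signal rank. All are reference sequence of build GRCm38.p6, the assembly that the deposited lists call mm10, and the promoters are RefSeq windows of the 250 bases before a start. The first 3 are promoters on the minus strand, written in the direction of transcription. Capitals mark CATTCC or its reverse complement GGAATG. The Cyr61 promoter is at chr3:145649986-145650235, the Yap1 promoter at chr9:8004597-8004846 and the Wwtr1 promoter at chr3:57575911-57576160.
Cyr61 promoter: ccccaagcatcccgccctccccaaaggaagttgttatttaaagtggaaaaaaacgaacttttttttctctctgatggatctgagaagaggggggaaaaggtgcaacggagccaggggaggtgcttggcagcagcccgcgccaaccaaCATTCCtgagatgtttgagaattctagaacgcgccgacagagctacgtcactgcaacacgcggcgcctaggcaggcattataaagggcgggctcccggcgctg
Yap1 promoter: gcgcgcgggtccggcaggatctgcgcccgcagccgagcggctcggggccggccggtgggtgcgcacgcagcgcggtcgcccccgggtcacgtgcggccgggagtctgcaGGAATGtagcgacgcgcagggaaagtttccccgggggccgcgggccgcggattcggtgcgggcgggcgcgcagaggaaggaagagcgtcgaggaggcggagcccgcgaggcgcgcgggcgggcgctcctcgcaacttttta
Wwtr1 promoter: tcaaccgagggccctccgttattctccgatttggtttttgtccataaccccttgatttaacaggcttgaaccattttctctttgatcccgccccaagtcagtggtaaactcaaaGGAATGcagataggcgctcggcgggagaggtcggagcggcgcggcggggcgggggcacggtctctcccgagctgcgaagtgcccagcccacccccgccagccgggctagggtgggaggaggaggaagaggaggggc

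The next sequences are the central 150 bases of shared peaks, on the plus strand. The Tead4 intron peak at chr6:128285876-128286025 and the peak upstream of Wwtr1 at chr3:57576446-57576595 hold the TEAD word, in capitals. In the Cyr61 peak at chr3:145653376-145653525 capitals mark a CArG box, the site of serum response factor. In the Ctgf peak at chr10:24630806-24630955 they mark the core of the CTCF site. The Tead1 intron peak at chr7:112826346-112826495 was the distal peak of the 10 genes with the highest signal rank and holds none of these words, so it has no capitals.
Tead4 intron peak: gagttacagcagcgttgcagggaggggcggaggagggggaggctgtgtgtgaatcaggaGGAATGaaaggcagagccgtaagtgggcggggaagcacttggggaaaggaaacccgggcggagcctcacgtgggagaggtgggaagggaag
Wwtr1 upstream peak: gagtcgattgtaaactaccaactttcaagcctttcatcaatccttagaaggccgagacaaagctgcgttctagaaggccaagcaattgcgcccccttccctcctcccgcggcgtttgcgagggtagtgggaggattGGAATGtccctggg
Cyr61 upstream peak: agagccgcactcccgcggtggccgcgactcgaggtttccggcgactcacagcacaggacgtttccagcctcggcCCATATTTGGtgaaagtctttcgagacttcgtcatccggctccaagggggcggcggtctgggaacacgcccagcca
Ctgf downstream peak: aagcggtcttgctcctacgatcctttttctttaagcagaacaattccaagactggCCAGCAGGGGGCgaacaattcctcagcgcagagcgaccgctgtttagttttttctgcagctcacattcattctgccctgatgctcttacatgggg
Tead1 intron peak: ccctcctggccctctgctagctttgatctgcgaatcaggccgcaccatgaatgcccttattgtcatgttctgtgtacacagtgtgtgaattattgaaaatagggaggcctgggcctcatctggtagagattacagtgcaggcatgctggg

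Of the 10 genes, 9 had a shared promoter peak, against 66.5% of all protein-coding genes. The exception was Ankrd1, which had no promoter peak in either library. The same 9 genes had a promoter peak in each library taken alone, beside 68.1% of all genes in replicate 1 and 68.5% in replicate 2. A shared gene-body peak was present at the same 9, against 65.0% of all genes. The 10 genes held 30 shared promoter peaks, 81 shared gene-body peaks and 96 shared distal peaks, or 138 distinct shared regions. Replicate 1 alone gave 42 promoter, 114 gene-body and 135 distal peaks, and replicate 2 gave 39, 103 and 123. The median gene of the 10 had 2 promoter, 5 gene-body and 7 distal shared peaks, and the median of all genes was 1 for each class. Distal shared peaks numbered 10 or more at 3 of the 10 genes, Tead1, Ctgf and Cyr61, against 12.0% of all genes. In single libraries 6 of the 10 genes reached 10 distal peaks in replicate 1 (18.4% of all genes) and 5 did in replicate 2 (17.9%), so this count depends on whether sharing is asked for.

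**Figure D1:**
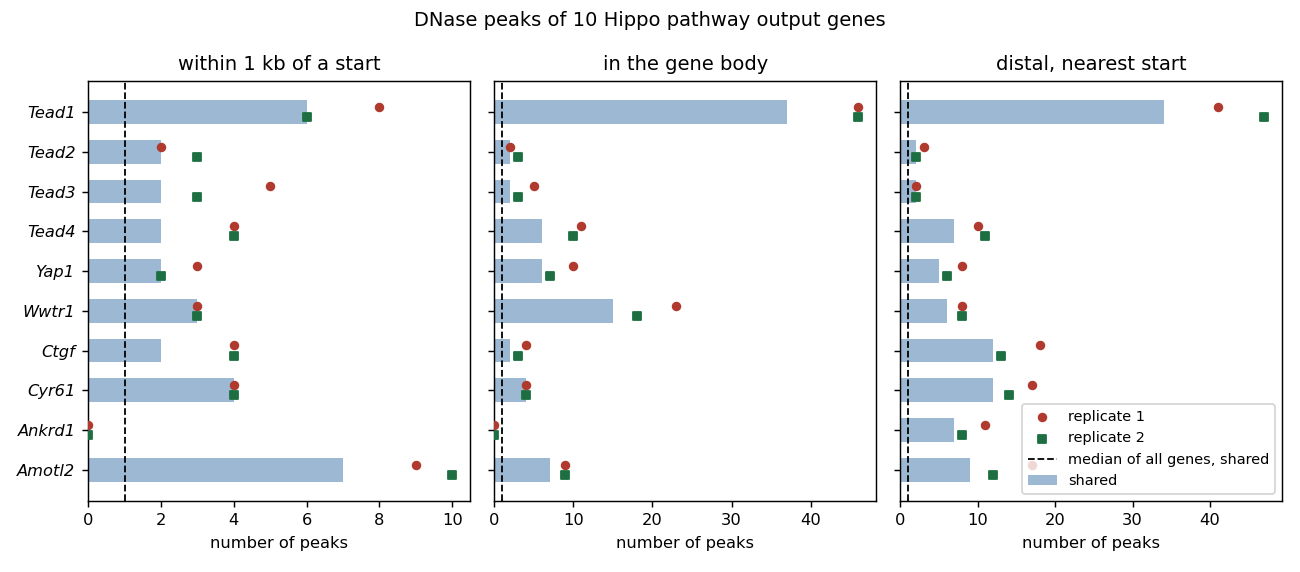
Number of DNase peaks per gene within 1 kb of a start, in the gene body and distal. Bars are shared peaks, points are each library alone and the dashed line is the median of all genes; Tead1 had 37 gene-body and 34 distal shared peaks, and Ankrd1 had no promoter or gene-body peak.

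The plot of counts per gene shows that most of the distal peaks came from a few genes. Tead1 alone held 35.4% of them, and 62 were left without it. The genes also differ in how much sequence lies nearest to them. Per 100 kb of sequence nearest to a gene's own starts, the median of the 10 genes was 7.54 distal shared peaks, beside a median of 3.01 for the 21646 genes with such sequence. Tead3 reached 17.3 per 100 kb with only 2 peaks, because it has 11.6 kb of such sequence, and Ctgf had 4.96 with 12 peaks in 242 kb.

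The TEAD genes encode the only members of the group that bind DNA themselves, and they differed in the number of distal peaks but less in their density. Tead1 had 13.7 distal shared peaks per 100 kb of sequence nearest to it, Tead2 12.9, Tead3 17.3 and Tead4 6.10. Tead1 had 41 distal peaks in replicate 1 and 47 in replicate 2, or 44 ± 4.24 (SD, n = 2), and 34 were shared. Only 1.06% of all genes had as many or more. Its gene body of 227490 bp held 46 peaks in each library and 37 shared. Of those 37, 3 were promoter peaks, 30 were distal peaks of Tead1 itself and 4 lay nearer to the start of the neighbouring gene Rassf10.

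Tead1 has 4 groups of annotated starts. The first had 4 shared promoter peaks, the starts 12380 bp and 62727 bp downstream had 1 each, and the last group, 80066 bp downstream with 4 annotated starts, had none in either library. The strongest promoter peak, at chr7:112679216-112679365, lay 28 bp upstream of a start with a deposited signal of 112 in replicate 1 and 102 in replicate 2. It held CATTCC 2 times in its central 150 bp. The signal is the authors' value per peak on a scale that the sources used here do not give, so peaks are compared by percentile rank within their own library. Where a pair of signals is given, the first is that of replicate 1 and the other that of replicate 2. The strongest distal peak, whose sequence is shown above, lay 66884 bp downstream of the nearest Tead1 start in an intron. Its signal was 127 and 104, a mean percentile of 96.7 over the libraries. It sat in a run of 4 shared peaks over 3530 bp, 3 of them high-ranking, which here means a mean percentile of at least 81.7, the level that 75% of all shared peaks lie below. A further high-ranking peak, at chr7:112842036-112842185, held CATTCC with signals of 76 and 73. Its centre lay in an intron, but its central 150 bp overlapped coding sequence of Tead1.

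**Figure D2:**
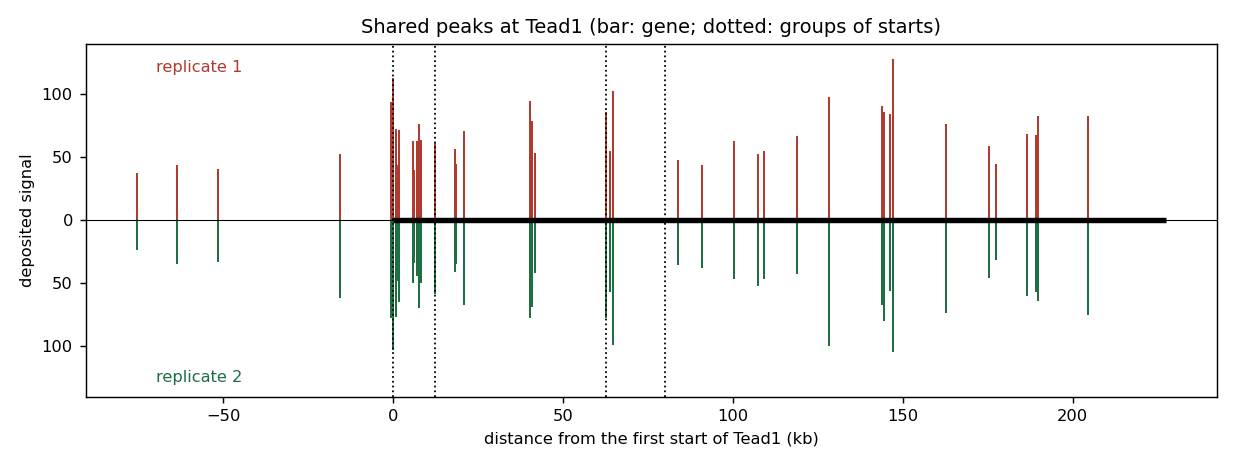
Deposited signal (vertical axis, replicate 1 above and replicate 2 below the line) of each shared peak at Tead1 by distance in kb from its first start. The thick bar is the gene and dotted lines are groups of starts; peaks continue through the gene body, and the fourth group of starts has no promoter peak.

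The plot along Tead1 holds shared peaks only, so each peak in it is present in both libraries by selection. The strongest distal peak lay well inside the gene, and distal peaks are away from any start by definition. In both libraries its signal was above that of every shared promoter peak of Tead1.

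The other TEAD genes had fewer peaks. Tead2, which is known for its expression in early embryos, had 2 promoter peaks in replicate 1, 3 in replicate 2 and 2 shared, both high-ranking. Its strongest promoter peak, at chr7:45216576-45216725, had signals of 121 and 117, and its 2 distal shared peaks both lay over untranslated sequence of the neighbouring gene Cd37. Tead3, whose human counterpart is known from placenta, had 5 promoter peaks in replicate 1, 3 in replicate 2 and 2 shared. The strongest, at chr17:28350816-28350985, had signals of 100 and 99. Its 2 distal shared peaks had their centres in introns, and both libraries had just these 2. The stronger of them overlapped coding sequence of Tead3 in its central 150 bp. Neither Tead2 nor Tead3 had a shared peak with CATTCC in its central 150 bp.

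Tead4, which is needed to form the trophectoderm of the mouse embryo, had 4 promoter peaks in each library and 2 shared. The stronger had signals of 60 and 62, and neither was high-ranking. That stronger promoter peak, at chr6:128300356-128300545, lay 288 bp downstream of a start and held CATTCC 3 times. Tead4 had 7 distal shared peaks, from 10 in replicate 1 and 11 in replicate 2. The highest by rank was the intron peak shown above, 10373 bp from the nearest Tead4 start, with signals of 93 and 80. It held CATTCC and the AP-1 word TGANTCA.

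The coactivator genes had their highest-ranking peaks at their starts and most others in introns. Yap1 had 2 shared promoter peaks, from 3 in replicate 1 and 2 in replicate 2, both high-ranking. The one at the start, at chr9:8004596-8004745, had signals of 110 and 111, and it contains the GGAATG shown in capitals in the Yap1 promoter. Its 5 distal shared peaks all lay inside the gene. The strongest, at chr9:7960456-7960625, lay 41163 bp from the nearest Yap1 start, an inner one 2893 bp downstream of the first, with signals of 99 and 97. Another lay 40163 bp from the same inner start with signals of 94 and 83. No distal peak of Yap1 held CATTCC in its central 150 bp.

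Wwtr1 had 3 promoter peaks in each library and 3 shared. The peak over the start, at chr3:57575816-57575985, had signals of 109 and 125 and a mean percentile of 97.0. The CATTCC match of the Wwtr1 promoter shown above fell outside every shared peak. The upstream peak shown above, 610 bp from the start, had signals of 81 and 87 and held the word. Of 15 shared peaks in the Wwtr1 gene body, 8 lay nearer to the start of the neighbouring gene Tm4sf4 than to that of Wwtr1. One of these, at chr3:57487536-57487685, had signals of 124 and 96, the highest signal of replicate 1 among the gene-body and distal peaks of Wwtr1; it was chosen for mention after its values were seen. The nearest start does not show which gene a peak acts on. The strongest distal peak assigned to Wwtr1 itself, at chr3:57535856-57536005, had signals of 69 and 47 and held CATTCC.

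Of the 4 target genes, 3 had shared promoter peaks and Ankrd1 had none. Ctgf and Cyr61 encode secreted matricellular proteins and are the most used readouts of YAP and TAZ. Ctgf had 4 promoter peaks in each library and 2 shared, with signals of 85 and 79 for the peak at chr10:24595396-24595585 and 86 and 86 for that at chr10:24595796-24595965. Neither held CATTCC in the central 150 bp, but the first held it 2 times within 300 bp. Its 12 distal shared peaks, from 18 in replicate 1 and 13 in replicate 2, all lay outside the gene, at distances up to 185272 bp. The strongest was the peak shown above, 35100 bp downstream, with signals of 88 and 87. Next in mean rank were a peak 4112 bp upstream, with 88 and 76, and one 29490 bp downstream, with 78 and 72. The CTCF core was in both downstream peaks, which were the only distal peaks of the 10 genes that held it, and not in the upstream one.

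Cyr61 had 4 promoter peaks in each library and all 4 were shared. The strongest, at chr3:145649956-145650105, lay 49 bp upstream of the start with signals of 115 and 111, and the CATTCC in the printed Cyr61 promoter is inside it. A second CATTCC promoter peak lay 891 bp downstream with signals of 66 and 58. Cyr61 had 12 distal shared peaks, from 17 in replicate 1 and 14 in replicate 2. A run of 11 shared peaks, the promoter peaks included, covered 6090 bp around the gene. The strongest distal peak, 3469 bp upstream, had signals of 99 and 98 and held the CArG box shown above, and a second CArG box lay in the peak 1889 bp upstream.

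Ankrd1, an ankyrin-repeat protein best known from heart and skeletal muscle, had 0 promoter and 0 gene-body peaks in both libraries. Its 7 distal shared peaks, from 11 in replicate 1 and 8 in replicate 2, were all intergenic, and 18.3% of all genes had as many or more. The nearest lay 8660 bp downstream of a start with signals of 61 and 63. The strongest, at chr19:36214676-36214825, lay 94651 bp upstream with signals of 88 and 80. None held CATTCC in its central 150 bp. The lists give peaks only, so an opening too weak to be called in these libraries cannot be seen, and their depth is unknown.

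Amotl2, an angiomotin-family protein that binds and restrains YAP and is itself a target, had the most promoter peaks of the 10 genes, 9 in replicate 1, 10 in replicate 2 and 7 shared. Only 0.611% of all genes had as many or more shared. Amotl2 has 9 annotated starts, which widens the sequence that counts as promoter. The strongest promoter peak, at chr9:102717616-102717785, had signals of 122 and 133 and a mean percentile of 99.0, the highest of any peak of the 10 genes, and held CATTCC. Counted with its neighbours it formed a run of 9 peaks over 5670 bp. Of its 9 distal shared peaks, the strongest lay inside the gene at chr9:102726396-102726545 with signals of 106 and 105.

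**Figure D3:**
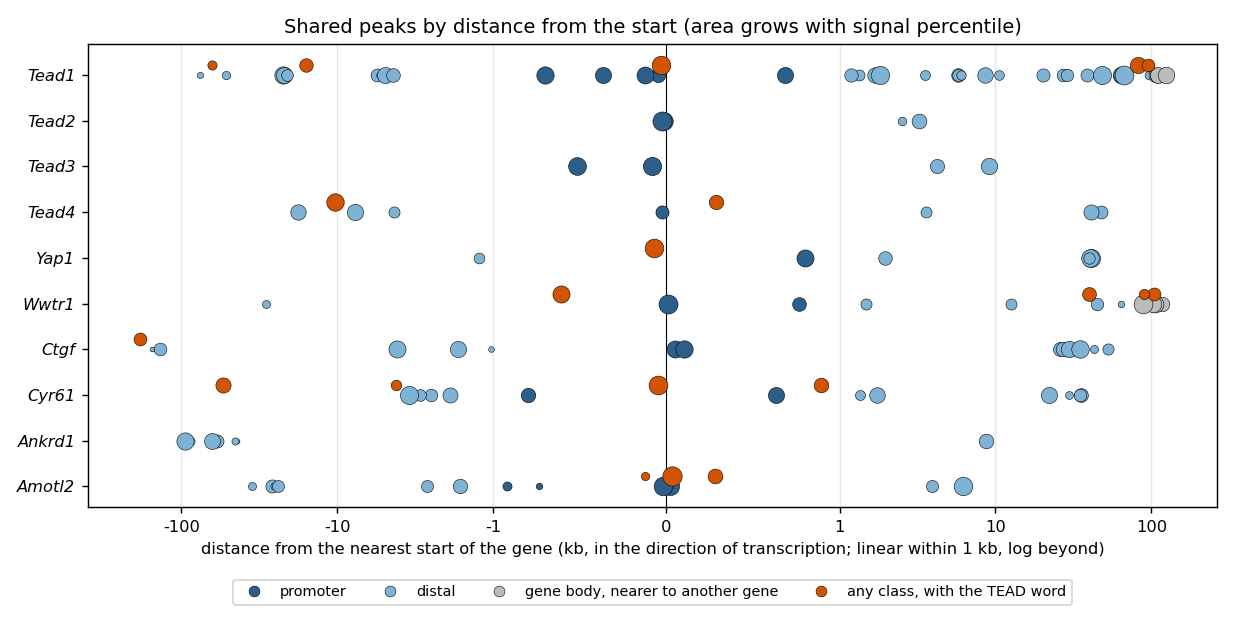
Shared peaks of each gene by distance from the nearest start of that gene in kb, in the direction of transcription (linear within 1 kb, logarithmic beyond). Point area grows with mean signal percentile and orange points hold CATTCC; they are 9 promoter, 9 distal and 2 other gene-body peaks, and Tead2, Tead3 and Ankrd1 have none.

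The map of peak distances shows where the distal peaks lay. Of the 96, 39 were within 10 kb of a start of their gene, 76 within 50 kb and 3 beyond 100 kb. By the position of the peak centre, introns held 49, intergenic sequence 41, untranslated exon parts 4 and coding exons 2. Of all 96, 51 (53.1%) lay inside the body of the gene to which they were assigned. Tead1 supplied 30 of these 51, and Tead2, Ctgf and Ankrd1 supplied none. The median distance to the nearest start was 22183 bp for the 96, beside 33853 bp for all distal shared peaks.

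The libraries agreed on most of these peaks. Of the distal peaks of the 10 genes, 99 of 135 in replicate 1 overlapped a peak of replicate 2, or 73.3% (Wilson 95% interval 65.3 to 80.1%), beside 68.9% of distal peaks of all genes. In replicate 2 it was 99 of 123, or 80.5% (72.6 to 86.5%), beside 71.5%. These are both directions of 1 comparison. The promoter peaks of the 10 genes were shared at 73.8% in replicate 1 and 82.1% in replicate 2, close to the 73.3% and 80.0% of all promoter peaks. Intervals cover counting error over peaks only, and neighbouring peaks of 1 gene are not independent. Of the 36 distal peaks of replicate 1 that were not shared, 25 (69.4%) also met no hotspot, a broader called interval, of replicate 2, beside 83.4% for all genes. In replicate 2 it was 21 of 24 (87.5%), beside 89.0%.

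**Figure D4:**
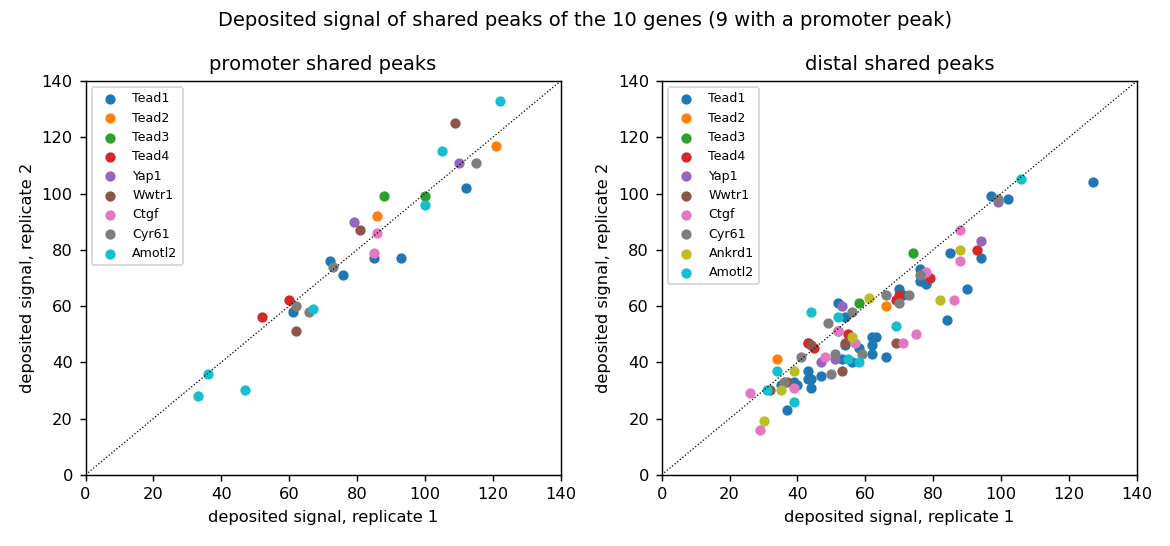
Deposited signal of each shared peak of the 10 genes in replicate 1 (horizontal) and replicate 2 (vertical), promoter peaks left and distal peaks right, coloured by gene. The dotted line is equality; promoter medians were 83 and 78, and distal medians were 56 and 49.

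As the plot of signals shows, peaks largely kept their order between libraries. Across the 96 distal peaks Spearman's rho was 0.890, beside 0.889 over all distal shared peaks, and across the 30 promoter peaks it was 0.956, beside 0.958. These are correlations across peaks of the same libraries and are given as a description. Distal signals of the 10 genes ran between 26 and 127 in replicate 1 and between 16 and 105 in replicate 2. Of their distal peaks 19.8% were high-ranking, beside 17.3% of all distal shared peaks. For promoter peaks it was 18 of 30 (60%), beside 51.3%. Promoter peaks of the 10 genes had a median GC content of 64.3%, beside 62.7% for all promoter peaks, and distal peaks had 51.3%, beside 50%.

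The TEAD word was counted on both strands in the central 150 bp of each shared peak. It was present in 9 of the 30 promoter peaks of the 10 genes, or 30% (Wilson 95% interval 16.7 to 47.9%), against 6.41% of all promoter shared peaks. Windows 500 bp to either side of the same peaks held it at 11.7%, beside 6.73% for all promoter peaks. The longer words that contain it can only occur in the same 9 peaks, so their counts are not independent of it. CATTCCA was in 3 of the 30 promoter peaks (10%, 3.46 to 25.6%) and in 1.63% of all. ACATTCC was in 4 of the 30 (13.3%, 5.31 to 29.7%) and in 1.53% of all. In single libraries the share with CATTCC was 26.2% in replicate 1 (6.62% of all promoter peaks) and 25.6% in replicate 2 (6.61%). A control word, CTACTC, was in 0 of 30 (Wilson 95% interval 0 to 11.4%), beside 4.35% of all promoter peaks, which lies inside that interval. The 9 peaks belonged to 6 genes: 3 to Amotl2, 2 to Cyr61 and 1 each to Tead1, Tead4, Yap1 and Wwtr1. Among genes with any shared promoter peak, 6 of these 9 (66.7%) and 12.3% of all 14593 had at least 1 that held the word; a gene with more promoter peaks has more chances to hold it. Tead2, Tead3 and Ctgf were the 3 without.

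In distal peaks the share at the 10 genes was near that of all genes. The word was in 9 of 96, or 9.38% (5.01 to 16.9%), against 11.0% of all distal shared peaks. Their flanks held it at 9.38% too, whereas the flanks of all distal peaks held it at 7.93%. Single libraries gave higher values for the 10 genes, 14.8% in replicate 1 (10.7% of all distal peaks) and 11.4% in replicate 2 (11.0%), so the order of the shares turns on whether sharing is asked for. Tead1 had 4 of the 9, Cyr61 2, and Tead4, Wwtr1 and Ctgf 1 each. In windows of 300 bp the shares were 50% beside 12.0% for promoter peaks and 22.9% beside 19.1% for distal peaks.

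**Figure D5:**
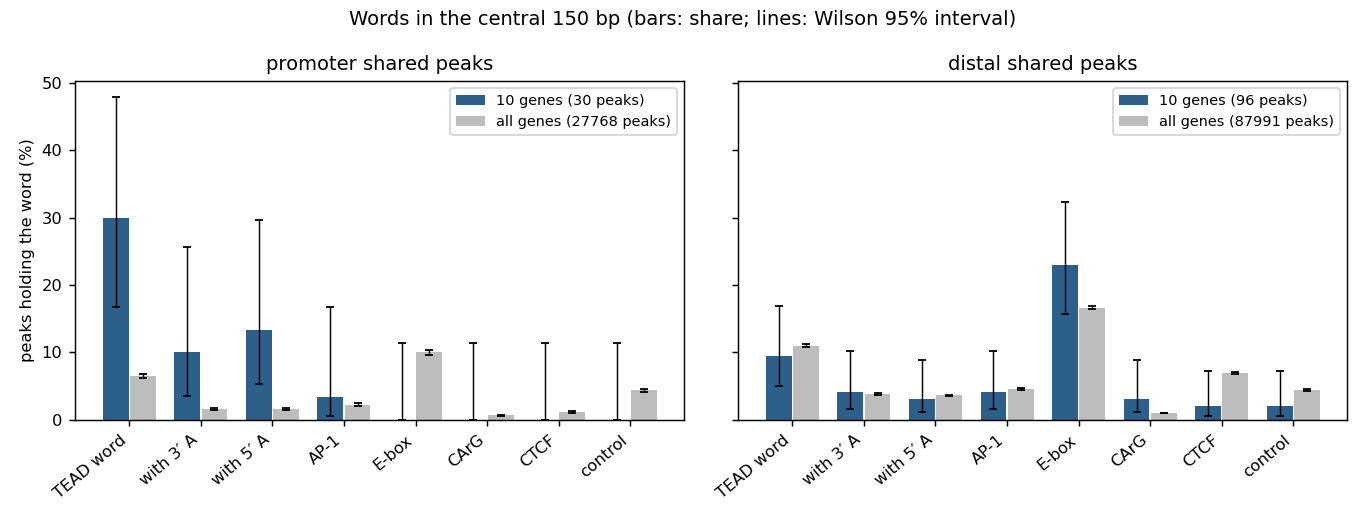
Share of shared peaks that hold a word in the central 150 bp, for the 10 genes (blue) and all genes (grey); lines are Wilson 95% intervals. The TEAD word was in 30% of promoter peaks of the 10 genes and 6.41% of all, and in 9.38% and 11.0% of distal peaks; the next bars require an A after or before it.

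The plot of words also shows the other sites. The E-box CAGCTG, bound by basic helix-loop-helix factors, was in 22.9% (15.6 to 32.3%) of the distal peaks of the 10 genes and 16.6% of all. In promoter peaks of the 10 genes it was in 0 of 30 (0 to 11.4%), beside 10.01% of all, which lies inside that interval. The AP-1 word was in 4.17% of their distal peaks, beside 4.57%. CArG boxes were in 3 of the 96 distal peaks (3.13%), beside 0.989% of all; 2 of these peaks belong to Cyr61 and 1 to Ankrd1. The CTCF core was in 2.08% (0.573 to 7.28%) of their distal peaks, beside 6.89%. The GLI word GACCACCCA and the NFI site were in none of them. The control word was in 2.08% (0.573 to 7.28%) of their distal peaks, beside 4.37% of all. A match is a description of the letters, not evidence of binding.

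The RefSeq promoter windows give a count that does not depend on where peaks were called. They were matched for 7 of the 10 genes, with 10 windows; Tead1, Tead4 and Ctgf were not matched. CATTCC was in 8 of the 10 windows, belonging to 6 of the 7 genes, against 12.6% of all 32851 windows. The control word was in 7.80% of all, and its count in the 10 matched windows is not given here. The windows of 1 gene overlap and are not independent. Counted from the start, the first letter of the match lay at -141 in Yap1, -136 in the Wwtr1 window shown above, -103 in Cyr61, -65 in Amotl2, and -210 and -123 in Ankrd1. Tead3 had matches at -123 and -114 before 1 start and at -182 before another, and Tead2 had none. Of these, the matches of Yap1, Cyr61 and Amotl2 were inside a shared peak, and that of Wwtr1 was outside. The Tead3 match at -182 lay across the edge of a shared peak, and the other matches of Tead3 were outside. Both matches of Ankrd1 lay in a promoter with no peak in either library. The windows of Tead2, Tead3, Ankrd1 and Amotl2, and the Wwtr1 window not shown, overlap annotated untranslated sequence. Matches in them may therefore lie in sequence transcribed from another start. The whole Ankrd1 window, at chr19:36119845-36120094, lay downstream of an annotated start of the gene at 36120099.

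Most other genes of the pathway had a promoter peak near at least 1 of their starts. All 18 kinases and upstream regulators listed had a shared one, against 66.5% of all protein-coding genes, with a median of 4 distal shared peaks, against 1 for all genes. The most distal peaks were at the atypical cadherin gene Fat4 (33), at Wwc1 (29), which encodes the scaffold KIBRA, and at Frmd6 (27). Of 4 TEAD cofactor genes 3 had a shared promoter peak, with a median of 10 distal shared peaks over the 4. Vgll4, whose product competes with YAP for TEAD, had 34 distal shared peaks, as many as Tead1, followed by Vgll3 with 12 and Vgll2 with 8. All 17 other genes known to respond to YAP and TAZ had a shared promoter peak, with a median of 10 distal shared peaks; Rbms3 had 81, and Tgfb2 and Nt5e had 24 each. Of these 17, 10 had 10 or more, beside 3 of the 10 genes described here and 12.0% of all genes. Distal counts of these lists are not divided by the sequence nearest to each gene, which differs between genes.

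The labelled tissue was checked against marker genes. Of 10 limb mesenchyme markers 9 had a shared promoter peak, against 66.5% of all protein-coding genes. The exception, Hoxd13, had no shared peak of any class. It had none in replicate 1, but 1 promoter and 3 distal peaks in replicate 2, where all 10 markers had a promoter peak. The median was 22 distal shared peaks for the mesenchyme markers, between 1.5 and 7.5 for each other marker group and 1 for all genes. Some single markers of other groups were above 22, with 32 at Sox2 (neural), 28 at Cdh5 (endothelial) and 28 at Ptprc (white blood cells). These counts too are not divided by the sequence nearest to each gene. Shared promoter peaks were found at 3 of 5 markers of surface ectoderm, 3 of 3 neural, 1 of 4 endothelial, 1 of 4 erythroid, 1 of 3 muscle, 0 of 3 white blood cell and 0 of 3 liver markers. Single libraries gave more for some of these: 5 of 5 ectoderm and 2 of 3 muscle markers in replicate 1, 2 of 4 endothelial and 2 of 4 erythroid markers in replicate 2, and 1 of 3 white blood cell markers in each. Which of these cells carry the peaks of the 10 genes was not tested.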

How the data were processed

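DNase-seq of embryonic limb was deposited as peak and hotspot lists for 2 biological replicates. Per the labels and the descriptions deposited with the files, regions are on mm10 and were called on each library's own filtered alignment. Which programs did this is not given in the sources used here; libraries were not pooled. The deposited peaks carry a signal value from the authors, between 2 and 146 in replicate 1 and between 2 and 149 in replicate 2, whose scaling is not stated. Peaks were compared by its percentile rank within their own list. Deposited values of both libraries are also printed and plotted side by side without rescaling. Whether the 2 scales match is unknown, and the list medians were 47 in replicate 1 and 39 in replicate 2. The deposited hotspots carry a −log10 q value with a ceiling of 100. The lists hold no read counts, so depth is unknown.

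Replicate 1 held 174611 peaks and replicate 2 held 167550. Of each, 181 lay outside chromosomes 1 to 19, X and Y and were left out. Peaks overlapping by at least 1 bp were merged into 118637 shared regions. GENCODE M21 gave 21938 protein-coding genes with 54361 starts. Ctgf and Cyr61 were matched through RefSeq synonyms. Words were searched on both strands in the central 150 bp and in windows 500 bp to either side. Promoter windows were matched by symbol to RefSeq (GRCm38.p6).

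The 10 genes and the other lists were chosen with earlier results of these data known. All 10 genes are named. From each other pathway list the 3 genes with the most distal shared peaks are named. Peaks named singly are each gene's promoter and distal peak of highest mean rank and high-ranking peaks holding CATTCC; other peaks named were chosen after their values were seen. Sequence is printed only where it overlaps no annotated UTR or coding exon. As alternatives, the required overlap, the signal threshold, the promoter window, the reach, the starts, the word and its window were changed, hotspots replaced peaks, and replicates were left out in turn. The merging of overlapping peaks, the nearest start, the sequence assigned to genes and the search for CATTCC were also tested on simulated data. Other steps were not. Python 3.11.15, NumPy 2.4.6, SciPy 1.17.1 and Matplotlib 3.10.9 were used.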

Additional observations from a re-analysis of the deposited data

How the results depend on the processing

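Of 71 alternative values of the summary results, 49 stayed near the reported value and 22 did not. Of 90 for single genes, 77 did and 13 did not. Near meant within 1.5 times a reported count. For a share it meant within 1 SD of the 2 single-library shares (n = 2), which is not a spread of the shared-peak value. For the promoter share with CATTCC that SD was 0.389, and both single libraries, at 26.2 and 25.6%, counted as moved from 30%. Hotspots in place of peaks gave 13 promoter regions and a 500 bp promoter window gave 19, beside 30 as reported; hotspots are wider, so several peaks fall in 1. Genes with 10 or more distal peaks, 3 as reported, numbered 5 to 6 when 1 replicate was left out and 1 with peaks above the median signal. The share of distal peaks shared, pooled over both libraries at 76.7%, was 66.7% with an overlap of 75 bp and 86.2% with peaks above the median signal.

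The share of promoter peaks with CATTCC, 30%, ran between 25.6 and 26.2% when 1 replicate was left out. It was 28.6% with an overlap of 75 bp, 15.4% with hotspots (2 of 13, beside 5.95% of all), 36.8% with a 500 bp promoter window, 20.9% with a 2 kb window, 10% for CATTCCA, 13.3% for ACATTCC and 50% in 300 bp. The distal share, 9.38%, ran between 11.4 and 14.8% when 1 replicate was left out. It was 14.5% with hotspots (10.7% of all), 5.26% with a reach of 50 kb, 4.17% for CATTCCA, 3.13% for ACATTCC and 22.9% in 300 bp. Longer words and wider windows change these shares by construction; for the others the cause was not tested. Counts of 10 genes limit the precision of every share, and the unknown depth limits what a missing peak can show. No paired analysis was possible because the labels give 1 group.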
